A study of Homo sapiens with 4 samples.

Results

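The genes described here are the 56 members of the transforming growth factor β (TGF-β) superfamily pathway named as ligands, receptors, coreceptors, SMAD proteins and SMURF ubiquitin ligases, out of 20037 protein-coding genes in the RefSeq table used. They were taken as a list by name. A peak was assigned to the protein-coding gene that held its summit or, failing that, to the nearest one within 100 kb. By this rule 5 members had a peak in the list from control cells, where 9.28% of all protein-coding genes did, and 20 in the list from TGF-β1-treated cells, where 25.3% did.

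Chromatin immunoprecipitation sequencing (ChIP-seq) was performed on cultured human cells that the labels call HSC and describe as stem cells with progenitors. Control cells were compared with cells given TGF-β1 at 20 ng/mL for 2 h, and all were grown in a medium with fetal bovine and human serum. Each condition had 1 ChIP library and 1 input library, which is sheared chromatin without immunoprecipitation, and no source used here names the antibody. The treatment text, identical for the 4 libraries, also gives GDF11 at 100 ng/mL as the other agent. GDF11 is itself 1 of the 56 members, and no library name carries it. With 1 ChIP library per condition there was no replicate, so every difference below is between 2 libraries and no test between conditions was made. All intervals cover counting error only.

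Ligands of this superfamily are secreted dimers that bring together type II and type I receptors, which are serine/threonine kinases. The type II receptor phosphorylates the type I receptor, which then phosphorylates SMAD2 and SMAD3 after TGF-β or activin, or SMAD1, SMAD5 and SMAD9 after bone morphogenetic proteins (BMPs). These join SMAD4, enter the nucleus and bind DNA, while SMAD6, SMAD7 and the SMURF ligases limit the signal. In blood, TGF-β1 is known for holding stem cells out of the cell cycle and for restraining erythroid progenitors.

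Peaks of the 2 conditions differed in number across the whole genome. The control list held 5307 peaks from 36280696 ChIP tags and 66537905 input tags after removal of duplicates, and the TGF-β1 list 15993 peaks from 45984282 and 46802425, a ratio of 3.01 in peaks and of 1.27 in ChIP tags. The peak caller recorded tags of 60 bases for the control and 43 for the TGF-β1 list, with fragments of 148 and 136 bp. The effect of these differences on the calls was not tested. Of 14 marker genes of stem and progenitor cells (RUNX1 among them, which is also counted below as a nuclear partner), 2 were called in control cells and 6 after TGF-β1, and CD34, KIT and GATA2 in neither. Markers of other cell types had TGF-β1 peaks in 2 of 9 erythroid, 2 of 6 myeloid, 0 of 5 lymphoid and 3 of 7 stromal and endothelial genes, and control peaks in none of these 4 groups. Among the erythroid genes, HBB, which encodes β-globin, held 2 TGF-β1 peaks with folds of 6.59 and 5.58. Peaks do not measure expression, so the labelled cell type could not be checked from them.

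No peak of either list overlapped the promoter window (250 bases before to 50 after a listed start) of any of the 48 members that the RefSeq promoter table covers. The same was true of all 22199 windows of protein-coding genes in the table, 0 of which were overlapped in either list (this allows up to 0.0135% of windows), so the absence is not particular to the members. That bound covers counting error only, and whether these lists could hold a peak in such a window was not tested. To show what these windows hold, 3 are printed as the 250 bases before the start, 5′ to 3′ on the gene's strand, from RefSeq (GRCh38.p14), and were chosen after the peak distances were seen. SMAD6 and SMAD7 encode the inhibitory SMADs, which TGF-β and BMPs are known to induce in many cell types, and ACVR1C had the summit closest to any listed member start. Capitals mark the SMAD-binding palindrome GTCTAGAC and the SMAD-binding element CAGAC or its complement GTCTG.
SMAD6 (chr15:66701986-66702235, plus strand): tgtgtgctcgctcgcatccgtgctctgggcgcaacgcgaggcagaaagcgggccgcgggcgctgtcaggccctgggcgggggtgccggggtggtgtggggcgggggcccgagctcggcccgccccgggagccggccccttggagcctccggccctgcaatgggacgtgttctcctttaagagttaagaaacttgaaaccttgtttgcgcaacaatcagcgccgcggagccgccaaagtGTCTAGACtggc
SMAD7 (chr18:48950966-48951215, minus strand): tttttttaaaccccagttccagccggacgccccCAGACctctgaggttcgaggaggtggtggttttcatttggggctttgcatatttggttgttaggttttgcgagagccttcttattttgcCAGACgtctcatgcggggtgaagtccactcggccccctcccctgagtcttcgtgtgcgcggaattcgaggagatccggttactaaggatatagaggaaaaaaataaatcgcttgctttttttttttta
ACVR1C (chr2:157597561-157597810, minus strand): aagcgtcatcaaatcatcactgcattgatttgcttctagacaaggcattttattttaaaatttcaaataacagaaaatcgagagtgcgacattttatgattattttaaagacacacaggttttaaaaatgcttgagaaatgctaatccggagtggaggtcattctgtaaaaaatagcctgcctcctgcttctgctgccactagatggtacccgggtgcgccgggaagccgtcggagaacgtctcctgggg
SMAD6 carried the palindrome with its first base 12 bases before the start, and its nearest summits were 193 kb (TGF-β1) and 1127 kb (control) from that start. It was the single member window of 79 with this palindrome, which 48 of 22199 windows of protein-coding genes held (0.216%). The SMAD7 window is that of 1 of its 3 listed starts, the one nearest to a TGF-β1 summit. It had 2 CAGAC elements, with the nearest summits 194 kb (TGF-β1) and 426 kb (control) away. The ACVR1C window is that of a start inside the gene. It had neither element, and a TGF-β1 summit lay 1.00 kb before that start. On either strand, CAGAC was found in 37 of 79 member windows (46.8%) and in 44.8% of all windows. The same search gave GGCGC in 46 member windows (58.2%, against 60.0% of all), GGCTC in 65 (82.3%, against 69.1%), AGATAA in 11 (13.9%, against 7.91%) and TGATAA in 1 (1.27%, against 5.58%). The 79 windows come from 48 genes, so windows of 1 gene with several starts were each counted. Motif counts had been planned only for members with a summit in the window, and there were none. A match of letters is a description and not a binding site.

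Across the members, 5 of 56 had a control peak, or 8.93% (Wilson 95% interval 3.87% to 19.3%), where 9.28% of all protein-coding genes did. In the TGF-β1 list 20 of 56 had a peak, or 35.7% (24.5% to 48.8%), where 25.3% of all protein-coding genes did. BMP2, BMPR1B, SMAD9 and TGFBR3 had peaks in both lists, BMPR1A in the control list alone, 16 members in the TGF-β1 list alone and 35 in neither. The 4 shared members were 80.0% of the 5 with a control peak and 20.0% of the 20 with a TGF-β1 peak. Among all protein-coding genes, 5.35% had peaks in both lists, which was 57.6% of the genes with a control peak and 21.1% of those with a TGF-β1 peak. In each list the share of all protein-coding genes lay inside the members' interval. The share plot gives these counts by role.

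**Figure D1:**
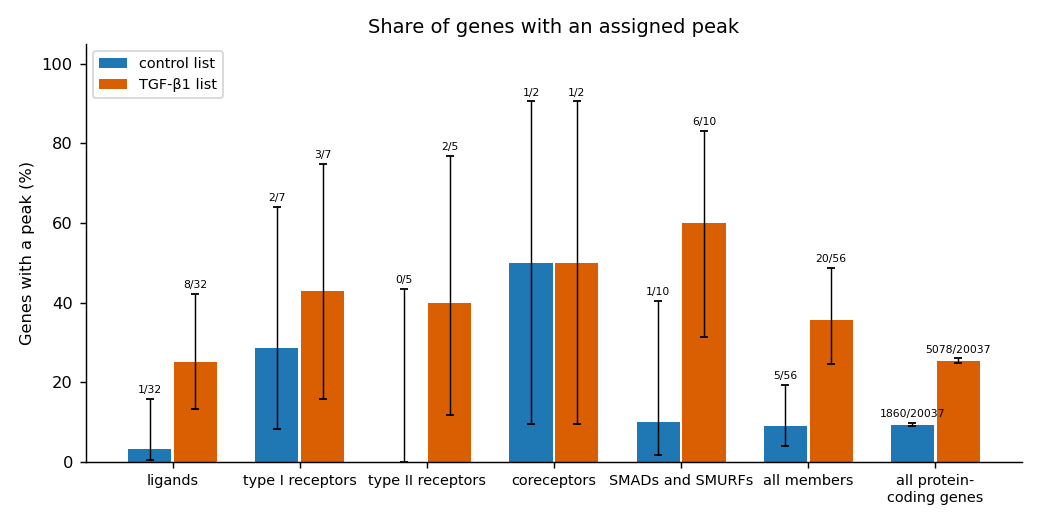
Percent of genes with an assigned peak in the control (blue) and TGF-β1 (orange) lists, by role, for all 56 members and for all protein-coding genes; bars start at 0, error bars are Wilson 95% intervals and the fraction of genes stands above each bar. SMADs and SMURFs had a TGF-β1 peak in 6 of 10 genes and ligands in 8 of 32, with wide intervals.

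The members held 7 control and 34 TGF-β1 peaks, of which 5 and 19 lay inside a gene body. In the TGF-β1 list BMPR1B had 4, TGFB2 and SMAD2 had 3 each, a further 7 members had 2 and 10 had 1. In the control list BMPR1B and TGFBR3 had 2 each and BMP2, BMPR1A and SMAD9 had 1. The map shows every summit against its gene.

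**Figure D2:**
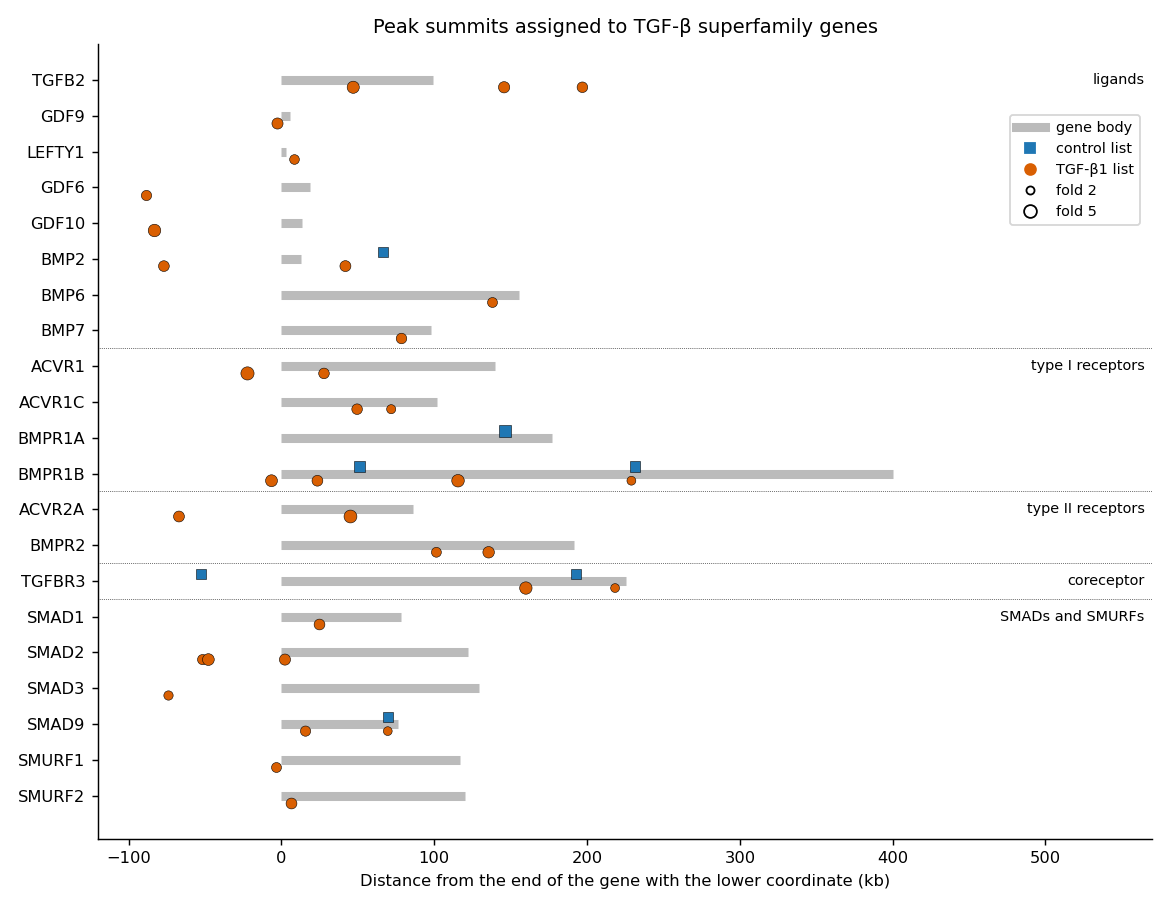
Summits assigned to the 21 members with a peak, as the distance in kb from the end of the gene with the lower coordinate; grey bars are gene bodies, blue squares control summits, orange circles TGF-β1 summits, and the area of a symbol grows with fold enrichment. The 7 control summits fall on BMP2, BMPR1A, BMPR1B, TGFBR3 and SMAD9.

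Each peak is described by the authors' own values. Pileup counts the ChIP tags that cover the summit once each is extended to a whole fragment. Fold enrichment is pileup plus 1 over local background plus 1, and −log10 q is the significance after correction across the genome. For the local background the caller takes whichever input level is greatest, over the fragment length, 1 kb, 10 kb or the genome, scaled to the ChIP library. For 89.1% of control and 68.1% of TGF-β1 peaks it equalled a whole number of input tags covering the summit, times the scaling factor, within 0.0005 tags. Member peaks stood on few tags, with pileups of 15 to 25 in the control list and 11 to 27 in the TGF-β1 list.

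Among the ligands, TGF-β1 peaks were found at 8 of 32 (25.0%, interval 13.3% to 42.1%), where 25.3% of all protein-coding genes had one. A control peak was found at 1 of 32 (3.13%, 0.554% to 15.7%), against 9.28% of all protein-coding genes. The ligands of the TGF-β and activin branch contributed 3 of 16 genes, TGFB2, GDF9 and LEFTY1, and none had a control peak. TGFB2 encodes the TGF-β2 ligand and lies on chromosome 1 (218345336 to 218444619, hg38). One of its 3 TGF-β1 summits was inside the gene (peak 218392193 to 218392367), 47.0 kb downstream of the start, with a pileup of 14 (exact Poisson 95% interval 7.65 to 23.5) and a fold of 4.52. The background there was the genome-wide 2.32, so no input window around this summit exceeded the genome average. The other 2 TGFB2 summits were 46.4 kb and 97.7 kb past the gene, with folds of 3.92 and 3.45. The farther one is the member summit just inside the 100 kb limit, and just outside it lay TGFB1, the gene of the ligand that was added, with a TGF-β1 summit at 101 kb that was nearer to ERICH4.

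LEFTY1 encodes an antagonist of Nodal signalling, and its TGF-β1 peak was 5.38 kb from the gene (pileup 19, fold 2.90, −log10 q 2.42). GDF9 encodes an oocyte growth factor, and its peak lay 3.05 kb outside the gene (pileup 19, fold 3.79, −log10 q 4.03). Both genes had little room around them, with 20.2 kb (LEFTY1) and 20.7 kb (GDF9) of genome nearer to them than to another gene. GDF11 had no peak in either list, and its nearest summits were 558 kb (TGF-β1) and 266 kb (control) away. INHBA, which encodes the subunit of activin A, also had none, although a TGF-β1 summit of fold 5.29 lay 113 kb from it.

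In the BMP and GDF branch TGF-β1 peaks were found at 5 of 16 genes, where 25.3% of all protein-coding genes had one. BMP2 alone was also called in control cells. BMP2 encodes a bone and mesoderm inducer. Its control summit, 54.0 kb from the gene, had a pileup of 15 and a fold of 2.98, and its 2 TGF-β1 summits, 76.95 kb and 29.3 kb from the gene, had pileups of 20 and 16 and folds of 3.55 and 3.69. The control summit and the nearer TGF-β1 summit were 24.7 kb apart, so BMP2 had peaks in both lists at different places. BMP6 is a BMP known for inducing hepcidin, the regulator of iron, and had its peak inside the gene, 138 kb downstream of the start (pileup 17, fold 3.04). BMP7 also held its peak inside the gene, with the lowest pileup of any member peak, 11 (5.49 to 19.7), over a background of 2.53 set by 189 input tags in 10 kb. GDF10 (also called BMP3B) had a TGF-β1 summit 83.7 kb from the gene, inside the non-coding gene LOC105378291, with a fold of 4.81. GDF6 had one 88.9 kb away with a fold of 3.25.

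Type I receptor genes had TGF-β1 peaks in 3 of 7 cases (ACVR1, ACVR1C and BMPR1B) and control peaks in 2 of 7 (BMPR1A and BMPR1B). The Wilson intervals of these shares were 15.8% to 75.0% (TGF-β1) and 8.22% to 64.1% (control). They held the shares of all protein-coding genes, 25.3% and 9.28%. ACVR1, which encodes the BMP receptor ALK2, had the member peak of highest fold. That peak lay on chromosome 2 (157714109 to 157714282), 22.2 kb outside the gene, with a pileup of 20 (12.2 to 30.9) over 3 input tags, a −log10 q of 7.03 and a fold of 5.32, number 515 of the list in that order. Its second peak, inside the gene, had a pileup of 16 over 4 input tags and a fold of 3.45. ACVR1C, which encodes the Nodal and activin receptor ALK7, is a close neighbour of ACVR1 on the same chromosome and held 2 peaks inside. The first had the same pileup of 16 and the same 4 input tags, and hence the same fold of 3.45. The second, 1.00 kb before the internal start printed above, had a pileup of 14 over 5 input tags, a −log10 q of 1.30 and a fold of 2.54. This q lay at the limit of 0.05 that the caller applied.

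BMPR1A and BMPR1B encode the BMP receptors ALK3 and ALK6. BMPR1A had the member peak of highest fold in the control list, inside the gene on chromosome 10 (86901895 to 86902045), with a pileup of 21 (13.0 to 32.1) over 7 input tags, a −log10 p of 9.83 and a fold of 4.57. No TGF-β1 peak was assigned to BMPR1A, and the closest one, 41.2 kb away, was nearer to LDB3. BMPR1B, the longest member at 400 kb, had control peaks with folds of 3.94 and 3.39 and TGF-β1 peaks with folds of 4.34, 3.59, 4.81 and 2.41, all but the first of the latter inside the gene. That one lay 6.53 kb before the first start, in the divergent non-coding gene BMPR1B-DT. The nearest control and TGF-β1 summits in BMPR1B were 2317 bp apart. TGFBR1, which encodes the type I receptor of TGF-β itself, had no peak, with the nearest summits 889 kb (TGF-β1) and 194 kb (control) away.

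Of the 5 type II receptor genes, ACVR2A and BMPR2 had TGF-β1 peaks, against 25.3% of all protein-coding genes. None had a control peak, against 9.28%, and 0 of 5 leaves a Wilson upper bound of 43.4%. ACVR2A encodes an activin receptor. One of its peaks lay inside the gene, 44.6 kb downstream of the start, with a pileup of 19 over 3 input tags and a fold of 5.07, and the other 67.1 kb outside with a fold of 3.65. BMPR2, the BMP type II receptor gene, held both of its peaks inside, with folds of 3.001 and 4.06. TGFBR2, which encodes the type II receptor of TGF-β, had no peak assigned. A TGF-β1 summit of fold 5.07 lay 94.9 kb from it but nearer to LOC105377015.

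Of the 2 coreceptor genes, TGFBR3 had 2 peaks in each list and ENG none. TGFBR3 encodes betaglycan, which presents TGF-β2 to its receptors. Inside the gene lay a control summit with a pileup of 20 and a fold of 3.28, and TGF-β1 summits with pileups of 18 and 18 and folds of 4.71 and 2.41. The folds of the 2 TGF-β1 peaks differ through the background alone, at 3.03 and 6.88 tags. The other control summit was 52.4 kb outside with a fold of 3.10. The closest summits of the 2 lists were 25.4 kb apart. For ENG, which encodes endoglin, a coreceptor of endothelial and stem cells, the nearest summits were 680 kb (TGF-β1) and 1143 kb (control) away.

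Among SMAD and SMURF genes 6 of 10 were called in the TGF-β1 list (60.0%, interval 31.3% to 83.2%), against 25.3% of all protein-coding genes, and 1 of 10 in the control list. Among the SMADs that receptors activate, SMAD1, SMAD2, SMAD3 and SMAD9 had TGF-β1 peaks and SMAD5 had none. SMAD2 had 3, of which the one inside the gene, 119 kb from the start and close to its other end, had a fold of 3.80. The other 2 lay 47.8 kb and 51.6 kb beyond that end, with folds of 4.26 and 3.19. SMAD1 had a peak 22.8 kb downstream of its nearest start, with a pileup of 14 and a fold of 3.57. The SMAD3 summit was 74.2 kb before the gene, in the divergent non-coding gene SMAD3-DT, with a fold of 2.67. SMAD4, the common partner, and the inhibitory SMAD6 and SMAD7 had no peak in either list, and SMAD4 had its nearest summits 132 kb (TGF-β1) and 176 kb (control) away.

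Of the member peaks, 1 of 7 in the control list and 1 of 34 in the TGF-β1 list (2.94%) overlapped a peak of the other list, both in SMAD9. Among peaks of all protein-coding genes 2.45% (control) and 0.696% (TGF-β1) did, and among all peaks 14.4% and 4.81%. The control peak (chromosome 13, 36914311 to 36914458) and the TGF-β1 peak (36914274 to 36914496) overlapped by 148 bp, their summits were 7 bp apart, and both lay 5.85 kb downstream of the start. The pileup was 25 (16.2 to 36.9) in the control list and 27 (17.8 to 39.3) in the TGF-β1 list. Scaled to 1000000 ChIP tags this was 0.689 (0.446 to 1.02) and 0.587 (0.387 to 0.854), and the intervals overlapped. Input was also high there, with 15 control and 11 TGF-β1 input tags at the summit, or 0.225 and 0.235 when scaled to 1000000 input tags. The resulting local background, 4.11 and 4.67 times the genome-wide value, was the highest of any member peak in each list. Folds were 2.83 and 2.37, the lowest among the member peaks of each list. A second TGF-β1 peak in SMAD9, 59.7 kb downstream of the start, had a fold of 3.21, and the nearest control summit was 53803 bp away.

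SMURF1 and SMURF2 encode ubiquitin ligases that mark receptors and SMADs for destruction. The SMURF2 peak lay inside the gene, 114 kb from the start (pileup 18, fold 3.60), and the SMURF1 peak 3.50 kb beyond the gene (pileup 17, fold 3.04). A control summit lay 7.98 kb from SMURF1, nearer to its neighbour TRRAP, and 4475 bp from the TGF-β1 summit. The count of SMURF1 in 1 list alone thus rests on which gene each of these close summits is nearer to.

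Median fold was 3.28 for the 7 control and 3.56 for the 34 TGF-β1 member peaks, where peaks assigned to any protein-coding gene had 3.41 and 3.62. A −log10 q of at least 5 was reached by 1 of 7 and 7 of 34 member peaks, against 24.3% and 17.9% of the peaks of protein-coding genes. None of the 41 lay over a background above 5 times the genome-wide value, where 9.27% of control and 1.00% of TGF-β1 peaks of protein-coding genes did. The smallest −log10 p in the control list was 4.01 and in the TGF-β1 list 3.72, and 3 of the 34 TGF-β1 member peaks fell below the former. Lists of peaks do not give the tags at sites that were not called, so a missing peak is not a measured absence.

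**Figure D3:**
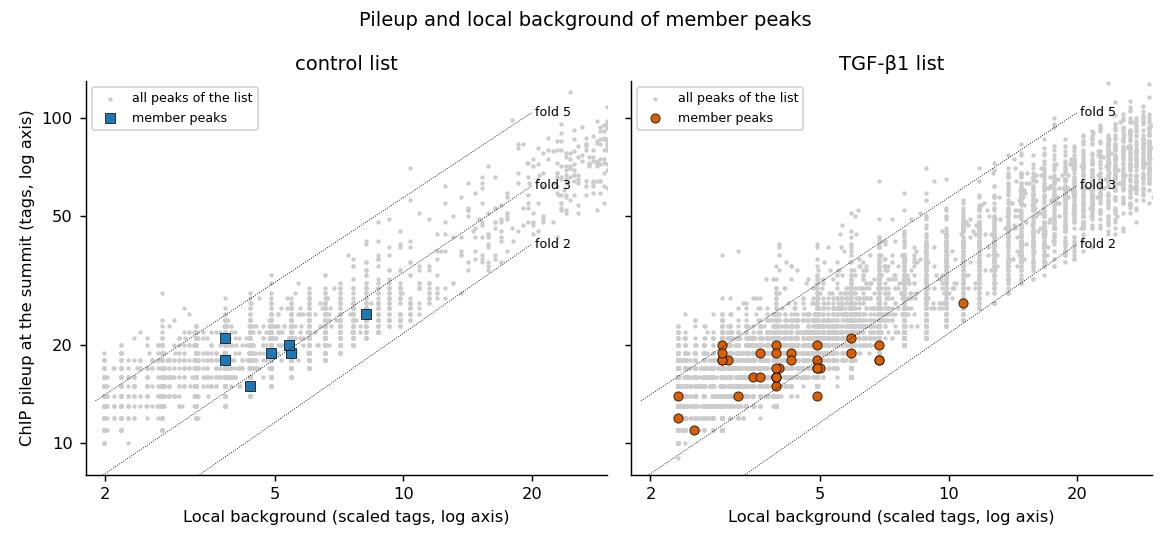
ChIP pileup at the summit against local background, both in tags on log axes, for all peaks (grey) and member peaks (blue squares in the control list, orange circles in the TGF-β1 list); dotted lines mark equal fold enrichment, and peaks above a background of 30 tags are outside the axes. Member pileups run from 15 to 25 in the control and from 11 to 27 in the TGF-β1 list, with the SMAD9 peaks farthest to the right.

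The counts of members moved with the rule for a peak, and those of all genes moved too. With a −log10 q of at least 5, 1 member remained in the control list (2.14% of all protein-coding genes) and 6 in the TGF-β1 list (6.55%), of which ACVR1, ACVR2A and BMPR1B are receptor genes and SMAD2 the single SMAD. With the TGF-β1 list shortened by fold to the length of the control list, 8 members remained (11.8%). Within 10 kb of a gene it was 4 in the control list (6.65%) and 16 in the TGF-β1 list (18.8%), and inside a gene 4 (5.5%) and 13 (15.8%). When a nearer non-coding gene took the peak, 5 (7.04%) and 16 (19.2%) were left, the 4 lost being GDF6, GDF10, SMAD3 and SMURF1. Over a local background of at most 5 times genome-wide, 5 (8.92%) and 20 (25.2%) members had a peak. Outside 1 Mb bins with at least 20 peaks there were 5 (9.24%) and 20 (25.3%).

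Positions relative to gene starts could be given for 6 of the 7 control and 29 of the 34 TGF-β1 member peaks. None was within 1 kb of a listed start. The ACVR1C peak alone was within 5 kb, and the median distance to the nearest start was 31.9 kb in the control and 74.2 kb in the TGF-β1 list. Of the TGF-β1 summits, 22 were downstream and 7 upstream of the nearest start. Whether they fell in exons or introns was not analysed here.

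Members with a peak had more genome around them. The stretch in which a summit would be assigned to a gene, here called its territory, had a median of 211 kb for the 20 members called after TGF-β1 and 39.8 kb for the 36 without. It was 213 kb for the 5 members with a control peak and 75.2 kb for the other 51. Ligand genes were short (median 13.0 kb) with a median territory of 29.7 kb, whereas the other 24 members had medians of 83.5 kb and 155 kb. For all protein-coding genes these medians were 24.1 kb and 56.5 kb. A TGF-β1 peak was found at 12 of these 24 members (50%, Wilson 95% interval 31.4% to 68.6%), against 25.3% of all protein-coding genes. Per Mb of territory the members held 5.23 TGF-β1 peaks (exact Poisson 95% interval 3.63 to 7.31), all protein-coding genes 3.86, ligands 4.37 (2.18 to 7.82) and the other members 5.78 (3.66 to 8.68). SMAD and SMURF genes held 5.26 (2.40 to 9.98), an interval that held the value of all protein-coding genes. In the control list the members held 1.08 per Mb (0.433 to 2.22) and all protein-coding genes 1.10. The intervals of ligands and of the other members overlapped, and for the members as a whole the interval held the value of all genes in both lists.

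**Figure D4:**
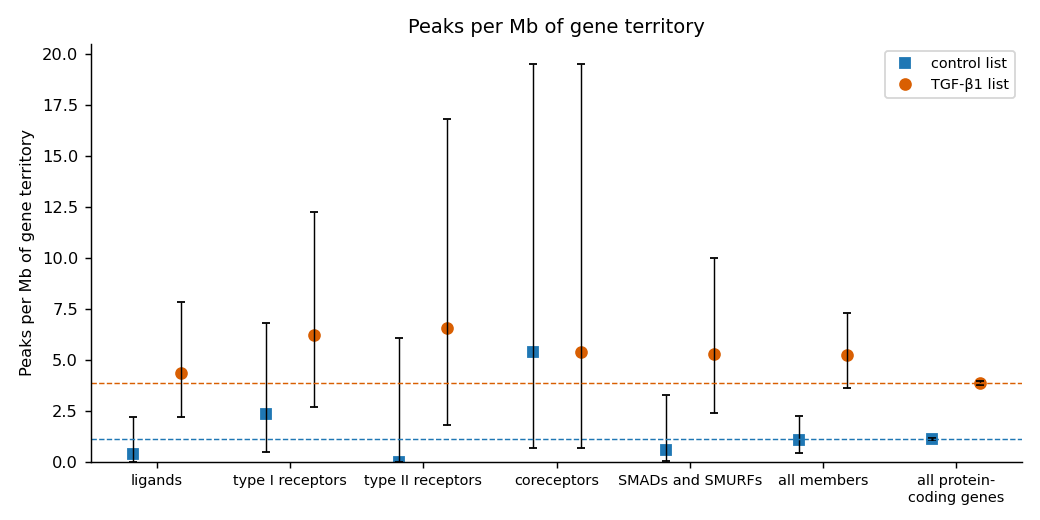
Peaks per Mb of gene territory by role in the control (blue squares) and TGF-β1 (orange circles) lists; error bars are exact Poisson 95% intervals and dashed lines mark all protein-coding genes, at 1.10 (control) and 3.86 (TGF-β1). The interval of every role in both lists reaches its dashed line.

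Of the 36 members without a TGF-β1 peak, 9 had a TGF-β1 summit within 100 kb that was nearer to another gene, and the others had none that close. The same held for 5 of the 51 without a control peak. The median distance to the nearest summit was 157 kb in the TGF-β1 and 425 kb in the control list. AMH, which encodes the anti-Müllerian hormone, was the farthest in both, at 981 kb and 6867 kb. In the control list the member just outside the 100 kb limit was MSTN, the gene of the muscle growth inhibitor myostatin, with a summit at 102 kb that was nearer to AKAP19.

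**Figure D5:**
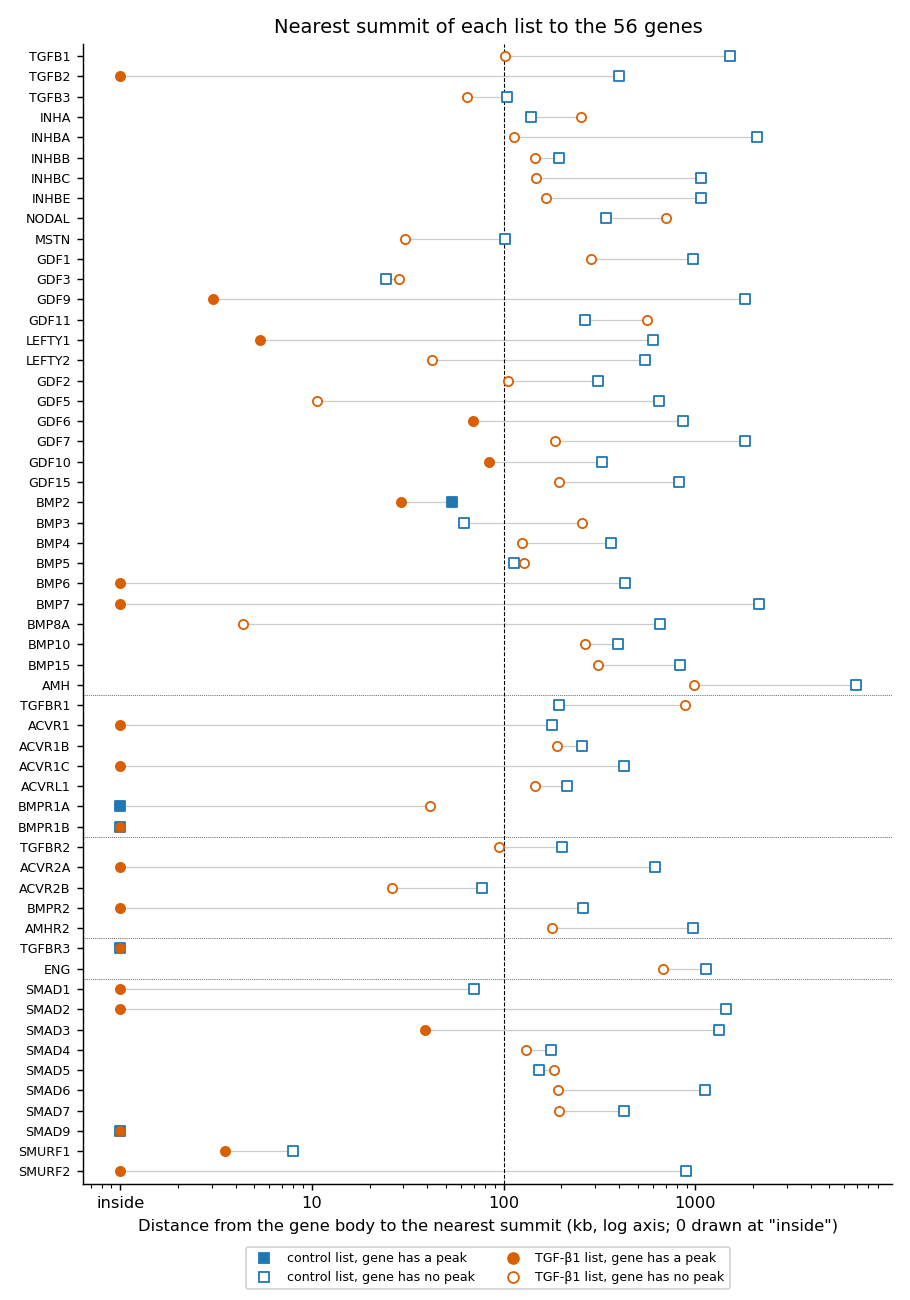
Distance in kb (log axis) from each of the 56 gene bodies to the nearest control summit (blue squares) and TGF-β1 summit (orange circles), with a summit inside the gene drawn at "inside" and the dashed line at 100 kb; filled symbols are genes with a peak by the assignment rule. For GDF6 and SMAD3 the nearest TGF-β1 summit belongs to another gene and their own is farther away, at 88.9 kb and 74.2 kb.

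Of the other genes of the pathway, 73 in 4 lists, 27 (37.0%) were assigned a TGF-β1 peak, whereas 12 (16.4%) were assigned a control peak. For all protein-coding genes these shares were 25.3% and 9.28%. The Wilson intervals of each of the 4 gene lists held them, whereas those of the 73 genes together, given below, lay above them. In the latent complex and matrix list, which covers proteins that store and release TGF-β, TGF-β1 peaks were found at 6 of 14 genes and control peaks at 2. ITGAV, the integrin subunit that helps release TGF-β, led with a fold of 4.82, followed by FBN2 (4.52), which encodes a fibrillin of the matrix, and LTBP2 (3.80), which encodes a protein of the latent TGF-β binding family. The control peaks were outside ITGB8 (3.18, 88.9 kb from the gene) and LTBP1 (1.56, 30.5 kb from the gene). The LTBP1 peak had a pileup of 206 over a local background of 132 tags, where the genome-wide value was 1.99.

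Extracellular antagonists and coreceptors held TGF-β1 peaks at 9 of 24 genes (37.5%, Wilson interval 21.2% to 57.3%), against 25.3% of all protein-coding genes. They held control peaks at 5 (20.8%, 9.24% to 40.5%), against 9.28%. FSTL1 (fold 5.13) and, with its summit inside the gene, BMPER (4.56) were among those in the TGF-β1 list. NBL1 (4.92) and, with its summit inside the gene, the BMP antagonist gene GREM1 (3.94) were among those in the control list. NOG, the gene of the BMP antagonist noggin, was the single one of the 73 with a peak that overlapped one of the other list, by 45 bp, with folds of 4.56 (TGF-β1) and 2.66 (control). Overlap was rare among peaks of all protein-coding genes too, at 2.45% of control and 0.696% of TGF-β1 peaks.

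Intracellular regulators had 7 of 23 genes with a TGF-β1 peak, led by MAP3K7, the gene of the kinase TAK1 (6.54, 48.6 kb from the gene), USP15 (5.07) and LDLRAD4 and XPO4 (both 4.56). Their 4 control genes were led by NEDD4L (4.57), STRAP (4.41) and WWP1 (4.09). Nuclear partners of SMADs had 5 of 12 with a TGF-β1 peak, led by RUNX2 (4.56), RUNX1 (3.29) and NCOA1 (3.21), and 1 with a control peak, RUNX2 (5.98). The share of the 73 genes called after TGF-β1, 37.0% (Wilson 95% interval 26.8% to 48.5%), stood beside 35.7% of the members and 25.3% of all protein-coding genes. In the control list it was 16.4% (9.66% to 26.6%), beside 8.93% and 9.28%. Per Mb of territory the 73 genes held 3.79 TGF-β1 and 1.17 control peaks, where all protein-coding genes held 3.86 and 1.10.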

How the data were processed

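The 4 libraries gave 2 peak lists, 1 per condition. The submitters' processing notes name Bowtie2, the build hg38 and MACS2 2.1.0, whereas the file headers name MACS 2.2.7.1. Per the file headers, the authors used the matching input as control for each ChIP library, kept 1 tag per position and set the q-value cutoff to 0.05. The deposited pileup is a signal in tags, the deposited fold enrichment a ratio to local background, and significance is deposited as −log10 of the caller's p-value and q-value. Peak lengths and summits are as deposited, counted from 1.

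Summits were assigned with Python 3.11.15 and pandas 2.3.3 to genes of a RefSeq table (GRCh38.p14, chromosomes 1 to 22, X and Y). All 56 members and all genes of the other lists matched by symbol, 1 of them (TDGF1, now CRIPTO) through an older one. A summit inside 2 overlapping genes counted for both. Territory was measured on a grid of 100 bp. Local background was recomputed from pileup and fold. Intervals are Wilson for shares and exact Poisson for numbers of peaks and tags. The assignment code was tested on simulated data. No genome sequence was used, so sequences at the peaks and exons were not analysed here. Every member with a peak is named, and of the other lists the genes of highest fold, some of which are not reported here. Members and lists were chosen with earlier results of these data known. The 8 members without a listed start are INHBE, GDF6, BMP2, BMP3, BMP7, LEFTY1, LEFTY2 and ACVRL1.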

Additional observations from a re-analysis of the deposited data

How the results depend on the processing

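With a −log10 q of at least 5, 1 member (BMPR1A) with 1 peak was left in the control list and 6 members with 7 peaks in the TGF-β1 list, none in both (0), at 0.154 and 1.08 peaks per Mb of territory (the latter setting chosen after seeing the data). All protein-coding genes fell to 2.14% and 6.55%, and to 0.267 and 0.692 peaks per Mb. The 6 were ACVR1, ACVR2A, BMPR1B, GDF10, SMAD2 and TGFBR3. With lists of equal length by fold, 8 members with 10 TGF-β1 peaks remained, 2 of them (BMPR1B and TGFBR3) also in the control list, where 11.8% of all genes had a TGF-β1 peak. Counting only summits inside a gene left 13 members with 19 TGF-β1 peaks (15.8% of all genes). Counts within 10 kb, against the nearest gene of any type, over low local background and, chosen after seeing the data, outside 1 Mb bins with at least 20 peaks stayed within 1.5 times. The overlap at SMAD9 stood at 1 peak per list under both other definitions. No paired analysis was possible because each condition had 1 ChIP library. Member peaks rest on 11 to 27 tags, and the effect of depth on the calls was not tested.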

Other observations

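Several members without a peak of their own had a TGF-β1 summit close by that was nearer to another gene. For BMP8A, a BMP gene, a summit lay 4.38 kb away, nearer to MACF1, with a fold of 4.22. GDF5, which encodes a joint and cartilage growth factor, had one 10.6 kb away, nearer to CEP250, with a fold of 3.99. The type II receptor gene ACVR2B had 3 TGF-β1 summits within 100 kb, the closest 26.1 kb away and nearer to XYLB, with a fold of 4.59. MSTN had 4 within 100 kb, the closest 30.6 kb away and nearer to AKAP19, with a fold of 4.23. GDF3, a Nodal-like ligand gene, had a summit of each list close by, 24.3 kb (control) and 28.6 kb (TGF-β1) away, both nearer to APOBEC1.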
